A study of Homo sapiens with 8 samples.

Results

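Ribosomes are built in the nucleolus, and the 46 genes described here encode proteins of that process. They were taken by symbol from a list of nucleolar, rRNA-processing and RNA polymerase I genes, and they are 46 of the 63677 genes in the count tables. RNA was sequenced from 8 libraries of MOLT-4 and DND-41, cell lines grown from human T-cell acute lymphoblastic leukaemias. The 4 groups, of 2 libraries each, were MOLT-4 labelled ACBI-1 (100 nM, 24 h), MOLT-4 labelled DMSO (the solvent, 24 h), DND-41 labelled ACBI-1 (100 nM, 24 h) and DND-41 labelled DMSO (24 h). ACBI-1, a PROTAC, joins the remodelling proteins SMARCA2, SMARCA4 and PBRM1 to the ubiquitin ligase VHL, so that they are degraded. The labels do not say whether libraries of a group came from separate cultures, so the p-values below measure the spread between libraries, which may be technical.

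RNA polymerase I copies the ribosomal DNA into a long precursor RNA, at promoters bound by UBTF and the SL1 complex. Small nucleolar RNAs with their proteins (snoRNPs) guide chemical changes of this precursor, which is then cut and folded into the small and the large ribosomal subunit by separate sets of factors. Many of these factors are textbook targets of MYC, a transcription factor that binds the E-box CACGTG as a dimer with MAX and that drives growth in T-cell leukaemia. By step the members were 7 genes of RNA polymerase I transcription, 5 of snoRNP proteins, 12 of small subunit processing, 16 of large subunit processing and 6 that act in several steps. The sequencing read the messenger RNAs of these factors, not the rRNA or the proteins.

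The E-box was looked for in the promoters, since it is the element by which MYC binds DNA. RefSeq promoter windows (GRCh38.p14, 250 bases before to 50 after the start) were matched for 39 of the 46 members, and POLR1E, NOP58, NOLC1, RRP12, RRS1, BOP1 and DDX18 had none. The 6 letters CACGTG, which read the same on both strands, stood in 16 of the 39 windows (41.03%). Where a gene had several starts in the table, member or not, the first window with the letters was taken, or the first listed where no window had them. They stood in 13.0% of the 9274 windows of genes tested in MOLT-4 and in 8.77% of all 27305 windows. In all 16 members a match began within 50 bases of the start, as it did in 39.6% of the 1208 windows of tested genes with a match. By step the letters were found in 1 of 6 windows of RNA polymerase I transcription, 1 of 3 of snoRNP proteins, 7 of 11 of small subunit processing, 5 of 13 of large subunit processing and 2 of 6 of several steps. The members were listed as MYC targets, so these shares are a description and not independent of the list. The 3 windows below belong to the members with the E-box that had the smallest adjusted p in MOLT-4, and that of PA2G4 is shown as one without it. Each is the sense strand, 5′ to 3′, from 120 bases before the start to 30 after it, with CACGTG in capitals. DDX21 lies at chr10:68956527-68956676, MRTO4 at chr1:19251685-19251834, GNL3 at chr3:52685912-52686061 and PA2G4 at chr12:56104439-56104588, all on the plus strand.
DDX21: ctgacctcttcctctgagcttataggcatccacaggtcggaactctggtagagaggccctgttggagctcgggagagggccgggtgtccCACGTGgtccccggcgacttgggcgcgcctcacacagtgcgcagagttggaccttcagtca
MRTO4: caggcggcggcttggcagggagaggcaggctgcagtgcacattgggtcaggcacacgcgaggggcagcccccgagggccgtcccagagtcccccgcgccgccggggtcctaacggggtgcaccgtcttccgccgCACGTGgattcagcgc
GNL3: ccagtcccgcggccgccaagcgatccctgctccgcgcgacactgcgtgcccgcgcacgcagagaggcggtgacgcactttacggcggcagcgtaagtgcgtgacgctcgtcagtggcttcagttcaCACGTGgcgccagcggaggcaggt
PA2G4: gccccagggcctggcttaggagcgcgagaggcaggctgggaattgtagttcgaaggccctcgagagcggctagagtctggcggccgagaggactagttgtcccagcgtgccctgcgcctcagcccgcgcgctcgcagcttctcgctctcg

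The libraries held 21308737 to 22067644 counts each, and no member had fewer than 123 counts in a library. Of 13 T-lineage markers, 13 lay above 1 CPM (counts scaled to library size) in every MOLT-4 library and 12 in every DND-41 library, where PTCRA did not. In MOLT-4, 6 of these 13 were lower with ACBI-1 and 4 higher by edgeR, where 30.2% of all 14618 genes tested were lower and 28.2% higher. The 4 that were higher were CD3G, RAG2, LCK and PTPRC, with log2 fold changes of 0.64, 0.28, 0.24 and 0.14. Of the 6 that were lower, CD7 had 24.5 and 20.2 CPM with ACBI-1, against 142 and 135 CPM with DMSO. CD2, CD1A, PTCRA, CD5 and CD3D had log2 fold changes of -1.92, -1.71, -1.80, -0.71 and -0.23. The B-lineage gene CD79A had 0.491 and 0.266 CPM with ACBI-1, against 4.37 CPM in each DMSO library. The part of these markers in the results was not tested. Myeloid and erythroid markers summed to at most 0.443 CPM in any library. The chi-square per degree of freedom, which counting noise alone puts near 1, was 2.85 between the MOLT-4 libraries with ACBI-1, 1.56 between those with DMSO and 55.7 to 57.0 across the groups. In DND-41 it was 6.001 and 5.53 between libraries sharing a number, and 76.3 (ACBI-1) and 71.9 (DMSO) between those sharing a treatment label. The DND-41 libraries are therefore called by their labels and numbers below. Differences within DND-41 are given both ways, and the test of a difference in response between the lines only as labelled. In MOLT-4, transcripts of the targets of ACBI-1 were not lower by the test. SMARCA2 had a log2 fold change of -0.06 (edgeR adjusted p = 0.439), SMARCA4 of 0.26 (adjusted p = 3.09e-08) and PBRM1 of 0.11 (adjusted p = 0.00736).

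The first comparison asked how the members changed in MOLT-4 cells after ACBI-1. Of the 46 members, 42 fell, 0 rose and 4 did not pass, by edgeR's quasi-likelihood test with Benjamini-Hochberg adjustment over all genes and a threshold of 0.05. Among all 14618 genes tested, 30.2% fell and 28.2% rose. The median log2 fold change of the members was -0.43, a level 25.8% lower with ACBI-1, against 0.01 for all genes tested. Single members ranged from -0.86 for RRS1 to 0.06 for UBTF. In CPM, scaled by edgeR's TMM factors within the line, the 46 genes together held 7213 and 7280.0 CPM in the ACBI-1 libraries, against 10140.3 and 10048 CPM in the DMSO libraries. Both ACBI-1 libraries lay below both DMSO libraries in 43 of the 46 members, as in 38.6% of all genes, and above them in 1, as in 39.2% of all genes. In a bulk sample, fewer cells that express a gene and less of its RNA per cell cannot be told apart, and each level is relative to the other RNAs of the library.

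The number of calls depended on which libraries set the spread. In 1 fit of all 8 libraries, with a common spread, 0 of the 46 members passed (lowest adjusted p = 0.229 by edgeR, 1 member at an unadjusted p under 0.05) at nearly the same median of -0.43, where 1.56% of 16047 genes rose and 1.83% fell. With total counts as the scale, instead of TMM, the median of all genes was 0.13 and that of the members -0.31. Under it 20.7% of all genes fell and 39.7% rose, and 41 members fell and UBTF rose, while FTSJ3 no longer passed and POLR1E, IMP3 and BOP1 were above 0 without passing. One ACBI-1 library of MOLT-4, replicate 2, held the fibroblast genes COL1A1 and COL1A2 at 13.8 and 4.92 CPM, against at most 1.09 CPM in the other MOLT-4 libraries. Without that library the median of the members was -0.43.

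**Figure D1:**
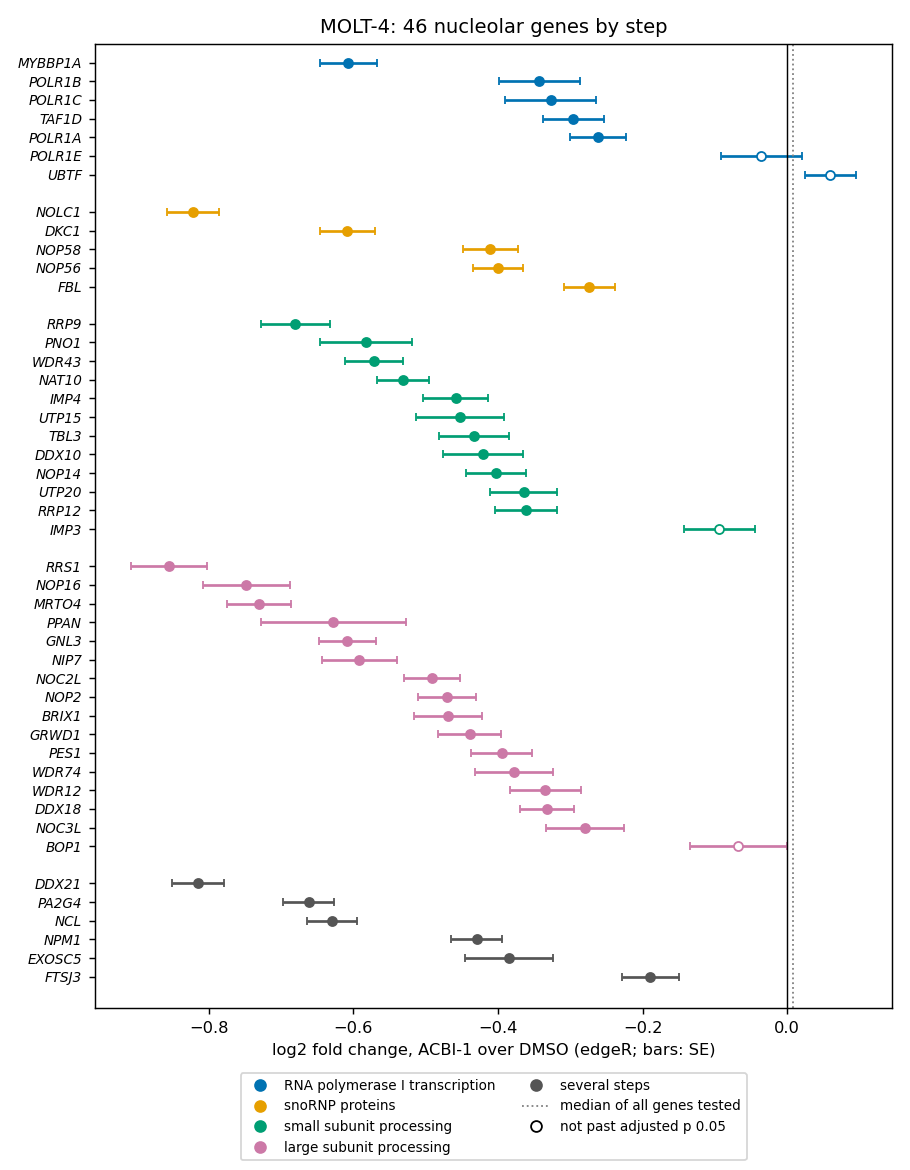
Log2 fold change of each of the 46 nucleolar genes in MOLT-4, ACBI-1 over DMSO, on the x axis, by step (colour). Points are edgeR estimates with their standard error, from 2 libraries per group. The 42 filled points passed an adjusted p of 0.05, all of them below 0, and the open points are POLR1E, UBTF, IMP3 and BOP1. The dotted line is the median of all 14618 genes tested.

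Of the 7 genes of RNA polymerase I transcription 5 fell, where 30.2% of all 14618 genes tested fell and 28.2% rose. These 7 genes had a median log2 fold change of -0.30, the nearest to 0 of the steps of members. Their summed level was 835 and 846 CPM with ACBI-1, against 972 and 964 CPM with DMSO. MYBBP1A, a nucleolar protein that acts in rRNA synthesis and processing, had 127 and 122 CPM with ACBI-1, against 194 and 185 CPM with DMSO. Its groups lay far apart, and it fell by 0.61 on the log2 scale (SE 0.0400, edgeR adjusted p = 3.18e-17). TAF1D, a subunit of the SL1 complex, had 118 and 123 CPM with ACBI-1, against 143 and 152 CPM with DMSO (log2 fold change -0.30, SE 0.0417, edgeR adjusted p = 6.12e-08). POLR1A, the largest subunit of the polymerase, had 147 and 144 CPM with ACBI-1, against 173 and 176 CPM with DMSO (log2 fold change -0.26, SE 0.0387, edgeR adjusted p = 1.6e-07). The further subunits POLR1B and POLR1C fell by 0.34 and 0.33 on the log2 scale. UBTF, the factor that binds the ribosomal DNA promoter, had 326 and 332 CPM with ACBI-1, against 322 and 309 CPM with DMSO. The groups stood in the opposite order to those of 43 other members, and the difference did not pass (log2 fold change 0.06, SE 0.0356, edgeR adjusted p = 0.149). POLR1E, the subunit also known as PAF53, had overlapping groups of 47.9 and 52.4 CPM with ACBI-1 and 50.7 and 52.1 CPM with DMSO (log2 fold change -0.04, SE 0.0558, edgeR adjusted p = 0.604).

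All 5 snoRNP genes fell, with a median log2 fold change of -0.41, where 30.2% of all genes tested fell. NOLC1, the chaperone Nopp140 that accompanies snoRNPs, had 272 CPM in each ACBI-1 library, against 492 and 471 CPM with DMSO. This was among the largest falls of the 46 (log2 fold change -0.82, SE 0.0356, edgeR adjusted p = 1.61e-23). DKC1, the pseudouridine synthase of the box H/ACA class, had 144 and 141 CPM with ACBI-1, against 215 and 219.8 CPM with DMSO (log2 fold change -0.61, SE 0.0382, edgeR adjusted p = 6.4e-18). NOP56, a core protein of the box C/D class, which methylates rRNA, had 468 and 477 CPM with ACBI-1, against 625 and 622 CPM with DMSO (log2 fold change -0.40, SE 0.0344, edgeR adjusted p = 1.42e-13), and its partner NOP58 fell by 0.41 on the log2 scale. FBL, the methyltransferase fibrillarin, had 295 and 297 CPM with ACBI-1, against 358 CPM in each DMSO library (log2 fold change -0.27, SE 0.0349, edgeR adjusted p = 6.28e-09).

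Among the 12 genes of small subunit processing, 11 fell, with a median log2 fold change of -0.44, where 30.2% of all genes tested fell. RRP9, a protein of the U3 snoRNP, had 58.6 and 56.6 CPM with ACBI-1, against 91.1 and 93.4 CPM with DMSO, the largest fall of this step (log2 fold change -0.68, SE 0.0480, edgeR adjusted p = 2.93e-16). WDR43, a protein of the processome that forms on the nascent precursor, had 110.3 and 113 CPM with ACBI-1, against 167 and 164 CPM with DMSO (log2 fold change -0.57, SE 0.0401, edgeR adjusted p = 2.47e-16). NAT10, which acetylates the RNA of the small subunit, had 210.4 CPM in each ACBI-1 library, against 303 and 305 CPM with DMSO (log2 fold change -0.53, SE 0.0359, edgeR adjusted p = 7.48e-17). In all 3 the gap between the groups was many times the gap within them. PNO1, which acts at the last cut of the small subunit RNA, fell by 0.58 on the log2 scale. IMP4 fell by 0.46, UTP15 by 0.45, TBL3 by 0.43, DDX10 by 0.42, NOP14 by 0.40, UTP20 by 0.36 and RRP12 by 0.36 on that scale. IMP3, which sits beside IMP4 on the U3 snoRNP, was the exception. It had 65.4 and 66.1 CPM with ACBI-1, against 70.6 and 69.8 CPM with DMSO, groups that did not overlap but that did not pass (log2 fold change -0.09, SE 0.0487, edgeR adjusted p = 0.0958).

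Among the 16 genes of large subunit processing, 15 fell, with a median log2 fold change of -0.47, where 30.2% of all genes tested fell. RRS1, which brings the 5S RNA complex to the large subunit, had 41.4 CPM in each ACBI-1 library, against 76.4 and 73.4 CPM with DMSO, the largest fall of the 46 (log2 fold change -0.86, SE 0.0526, edgeR adjusted p = 3.09e-18). MRTO4, which holds the place of the stalk protein P0, had 69.9 and 68.5 CPM with ACBI-1, against 114 and 116 CPM with DMSO (log2 fold change -0.73, SE 0.0448, edgeR adjusted p = 2.84e-18). GNL3, the GTPase nucleostemin, had 128 and 136 CPM with ACBI-1, against 199 and 204 CPM with DMSO (log2 fold change -0.61, SE 0.0395, edgeR adjusted p = 1.85e-17). The assembly factors NOP16, PPAN and NIP7 fell by 0.75, 0.63 and 0.59 on the log2 scale. NOC2L fell by 0.49, BRIX1 and NOP2, a methyltransferase of large subunit RNA, by 0.47, GRWD1 by 0.44, WDR74 by 0.38, the helicase DDX18 by 0.33 and NOC3L by 0.28. The PeBoW complex, formed by PES1, BOP1 and WDR12, was split: PES1 fell by 0.40 and WDR12 by 0.33, while BOP1 did not pass. BOP1 had overlapping groups of 28.6 and 27.3 CPM with ACBI-1 and 30.3 and 28.4 CPM with DMSO (log2 fold change -0.07, SE 0.0673, edgeR adjusted p = 0.405).

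Where 30.2% of all genes tested fell, all 6 genes that act in several steps fell, with a median log2 fold change of -0.53. They include the most abundant members, and their summed level was 2863 and 2914 CPM with ACBI-1, against 4236 and 4205 CPM with DMSO. DDX21, a helicase of both rRNA transcription and processing, had 245 and 241 CPM with ACBI-1, against 434 and 420.3 CPM with DMSO (log2 fold change -0.82, SE 0.0357, edgeR adjusted p = 2.26e-23). PA2G4, the growth regulator EBP1 that binds ribosomes, had 265 and 270.1 CPM with ACBI-1, against 431 and 416 CPM with DMSO (log2 fold change -0.66, SE 0.0356, edgeR adjusted p = 3.31e-20). NCL, the major nucleolar protein nucleolin, had 996 and 1001 CPM with ACBI-1, against 1562 and 1527 CPM with DMSO (log2 fold change -0.63, SE 0.0345, edgeR adjusted p = 6.16e-20). NPM1, the nucleolar chaperone nucleophosmin, had 1169 and 1219 CPM with ACBI-1, against 1590.1 and 1625 CPM with DMSO (log2 fold change -0.43, SE 0.0351, edgeR adjusted p = 3.17e-14). For each of these 4 genes the ACBI-1 libraries lay well below the DMSO libraries. EXOSC5, a subunit of the RNA exosome, fell by 0.38, and FTSJ3, an rRNA-processing methyltransferase, by 0.19 on the log2 scale, the smallest fall that passed. The differences between steps were not tested: their ranges overlapped, and each step had a member that fell by as much as MYBBP1A or more.

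MYC was lower in the same libraries. It had 323 and 315 CPM with ACBI-1, against 526 and 511 CPM with DMSO (log2 fold change -0.70, SE 0.0352, edgeR adjusted p = 3.16e-21), and MAX fell by 0.42 on the log2 scale (edgeR adjusted p = 7.31e-12). With the spread shared between the lines MAX passed (edgeR adjusted p = 0.0487) and MYC did not (edgeR adjusted p = 0.530). The part of either in the fall of the members was not tested. Members with CACGTG in the promoter window had a median log2 fold change of -0.50, and 16 of 16 fell. Those with a window that lacked the letters had a median of -0.43, and 21 of 23 fell, UBTF and IMP3 being the others. Of all 46 members 42 fell, and of all 14618 genes tested 30.2% fell. The difference between members with and without the letters was not tested. Of the printed windows, that of DDX21 has the letters and the gene fell by 0.82 on the log2 scale, that of MRTO4 has them with a fall of 0.73, that of GNL3 has them with a fall of 0.61, and that of PA2G4 lacks them with a fall of 0.66.

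Small nucleolar RNA genes lie inside 9 of the 46 members in GENCODE release 29 (19.6%), against 1.83% of 11684 protein-coding genes tested in MOLT-4. These hosts were POLR1C, TAF1D, NOP56, NOP58, DKC1, WDR43, PPAN, GNL3 and NCL. TAF1D held 8 snoRNA genes, GNL3 6 and NOP56 5. All 9 hosts fell in MOLT-4, with a median log2 fold change of -0.57. Of the other 37 members 33 fell, with a median of -0.43. Of all 46 members 42 fell, and of all 14618 genes tested 30.2% fell. Reads of the snoRNAs and of their hosts can be counted together, and small RNAs were not measured by themselves. Another gene whose counts came to over 10% of the member's overlaps 14 members, and the strand setting of the counting is not given in the sources used here. XPO5, opposite POLR1C, held 603% of its counts over the 8 libraries, PBRM1, opposite GNL3, 168%, HIGD2A, opposite NOP16, 146%, and EMC1, opposite MRTO4, 100.4%. P2RY11, on the same strand as PPAN, held 137% of the counts of PPAN. These shares compare total counts of whole genes and not reads within the overlap. How far the values of these members are affected was not measured. The 14 members fell in 14 of 14 cases, with a median log2 fold change of -0.46. The other 32 fell in 28 cases, with a median of -0.43. Here too the shares to set beside these were 42 of all 46 members and 30.2% of all genes tested. Of NPM1, 45 pseudogenes by name held 0.570% of its counts.

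Of 148 other ribosome biogenesis genes, which are not members, 127 fell in MOLT-4, 2 rose and 19 did not pass by edgeR, with a median log2 fold change of -0.31. The shares over all 14618 genes tested, for these genes and for each list below, were 30.2% that fell and 28.2% that rose. Among 14 further genes of RNA polymerase I transcription 12 fell and 1 rose (median -0.34), and TTF1, which ends rRNA transcription, fell by 0.51 on the log2 scale. The subunits POLR2F, POLR2L and POLR2E, shared by the nuclear RNA polymerases, fell by 0.64, 0.57 and 0.37. TAF1C, the SL1 partner of TAF1D, rose, with 143 and 133 CPM with ACBI-1, against 126 and 123 CPM with DMSO (log2 fold change 0.14, SE 0.0420, edgeR adjusted p = 0.00381). Among 14 further snoRNP genes 11 fell and 0 rose (median -0.28), among them GAR1 (-0.55), NHP2 (-0.39) and NOP10 (-0.21), the core partners of DKC1 in the H/ACA particle, and the assembly factors ZNHIT6 (-0.50) and RUVBL2 (-0.28). Of 50 further small subunit genes 47 fell and 1 rose (median -0.36). NOB1, the nuclease that works with PNO1, fell by 0.60, BMS1 by 0.60, NOL6 by 0.54 and PDCD11 by 0.53 on the log2 scale. RRP7A rose, with 233 and 219 CPM with ACBI-1, against 205 and 207 CPM with DMSO (log2 fold change 0.13, SE 0.0379, edgeR adjusted p = 0.00294). Among 55 further large subunit genes 47 fell and 0 rose (median -0.35). CCDC86 (-0.94), EIF6 (-0.80), which keeps new large subunits from joining small ones, EBNA1BP2 (-0.77) and RRP1B (-0.65) had the smallest adjusted p. Of 15 genes of the RNA exosome and its cofactors 10 fell and 5 did not pass (median -0.18). EXOSC4 (-0.76), ISG20L2 (-0.72), EXOSC7 (-0.38) and DIS3 (-0.31) fell. EXOSC2, EXOSC8, EXOSC9 and EXOSC10 lay at 0.00, 0.02, 0.02 and 0.04, and 0 of these 4 passed. When 1 library was left out, 0 to 2 of the 148 genes rose. Neither TAF1C (DESeq2 adjusted p = 0.0883) nor RRP7A (DESeq2 adjusted p = 0.0513) passed in the authors' deposited MOLT-4 table. It held 0 of the 148 genes as higher, where 14.7% of 16234 genes were higher.

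**Figure D2:**
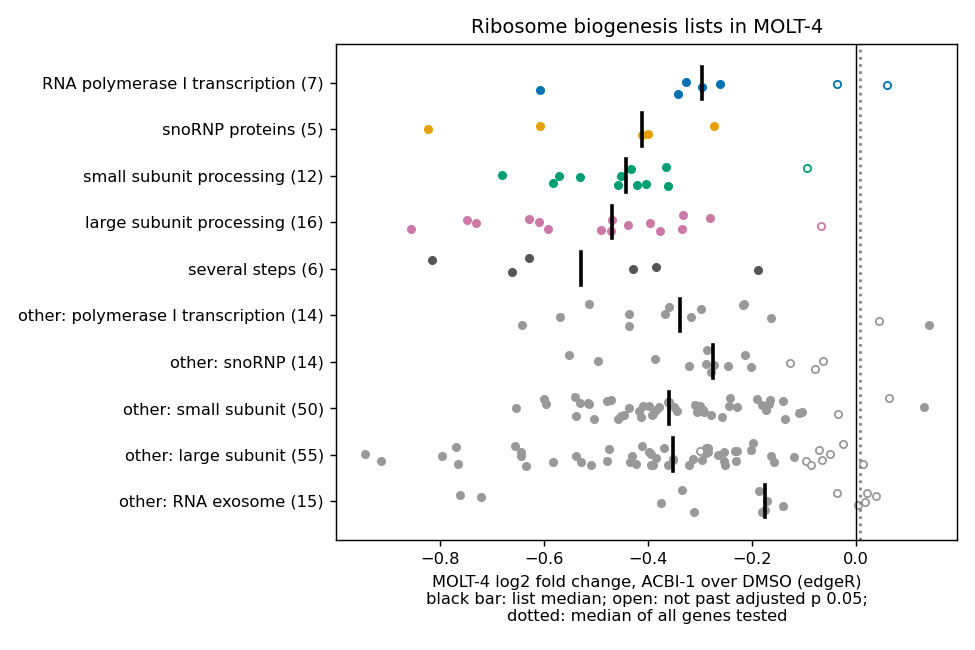
Log2 fold change in MOLT-4, ACBI-1 over DMSO (x axis, edgeR), of the 46 members by step (coloured) and of 148 other ribosome biogenesis genes by list (grey), 1 point per gene. Black bars are list medians, from -0.53 for members of several steps to -0.18 for the RNA exosome, and open points did not pass an adjusted p of 0.05. The dotted line is the median of all genes tested, 0.01.

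In DND-41 the libraries as labelled showed no difference that passed in the fit without a block. Of 14602 genes tested, 0 rose (0%) and 0 fell (0%) by edgeR, with 37 genes at an unadjusted p under 0.05, and DESeq2 gave 0 calls as well, with 10 genes at an unadjusted p under 0.05. Of the 46 members 0 passed and 0 had an unadjusted p under 0.05. With the replicate number as a block, 2 members were higher and 6 lower, where 5.32% of all genes were higher and 3.92% lower. Their median log2 fold change between the libraries labelled ACBI-1 and those labelled DMSO was -0.05, with 14 members above 0 and 32 below. In 0 of 46 members were both libraries of 1 label on the same side of both of the other. Of all genes, 7.46% had the ACBI-1 label lower and 8.66% had it higher. In 45 of the 46 members the libraries separated by number, and such a gene cannot also separate by label. The count by label was thus nearly fixed by the split by number and is not a separate result. NCL had 1369 and 686 CPM in the libraries labelled ACBI-1 numbers 1 and 2, against 1439 and 741 CPM in those labelled DMSO numbers 1 and 2 (log2 fold change -0.09, SE 0.490). The SE of NCL was 0.0345 in MOLT-4, so a change of the size seen in MOLT-4 was not detectable between the labelled DND-41 groups. The median of the members changed sign with the library left out. It was -0.57 without ACBI-1 replicate 1, 0.30 without ACBI-1 replicate 2, 0.39 without DMSO replicate 1 and -0.42 without DMSO replicate 2.

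The DND-41 libraries differed by number. The 46 genes together held 4981 CPM (labelled ACBI-1) and 5261 CPM (labelled DMSO) in the libraries numbered 2, against 8942 CPM (labelled ACBI-1) and 9298 CPM (labelled DMSO) in those numbered 1. Both libraries numbered 2 lay below both numbered 1 in 45 of 46 members, all but UBTF, and in 36.8% of all genes, while 38.9% of all genes lay above. MYC had 159 and 183 CPM in the libraries numbered 2, against 502 and 546 CPM in those numbered 1. The B-lineage gene CD79A moved with the number as well, with 188 and 216 CPM in the libraries numbered 2, against 711 and 767 CPM in those numbered 1. Of other B-lineage markers, CD79B had 0.225 and 0.578 CPM in the libraries numbered 2, against 3.05 and 3.66 CPM in those numbered 1, PAX5 stayed at or below 0.0489 CPM in every DND-41 library, and MS4A1 had 0 counts in all of them. Genes of the mitochondrial genome took 6.60% and 6.84% of counts in the libraries numbered 2, against 5.89% and 6.17% in those numbered 1. The part of these markers and of the mitochondrial share in the difference was not tested.

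**Figure D3:**
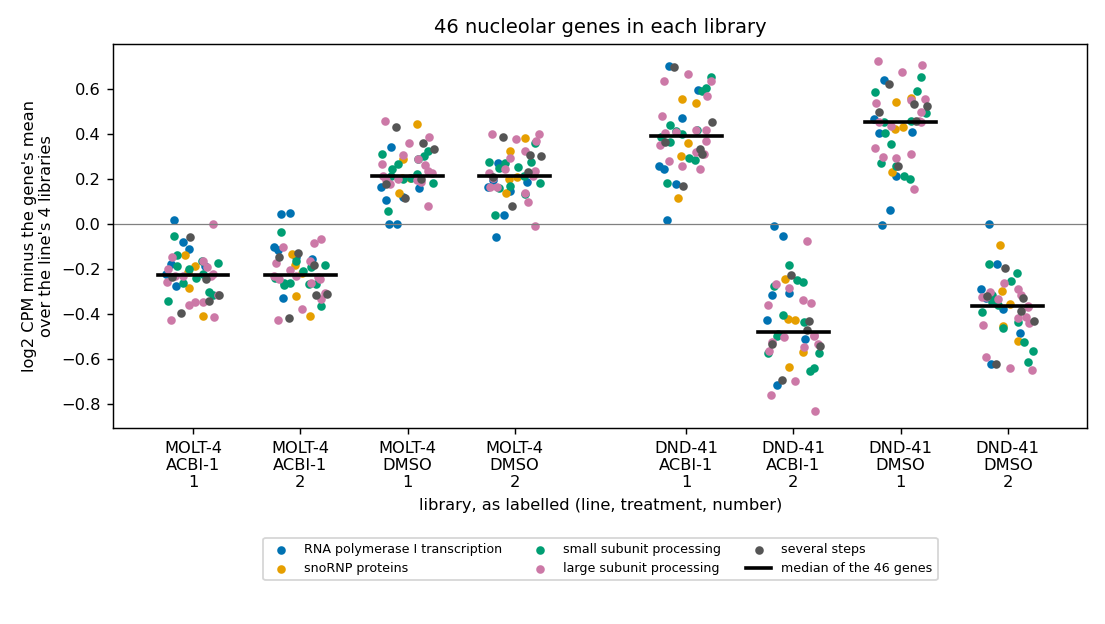
Level of each of the 46 nucleolar genes in every library, as log2 CPM minus the mean of that gene over the 4 libraries of its line (y axis), with the library as labelled on the x axis. Black bars are medians over the 46 genes, at -0.23 and -0.23 in MOLT-4 with ACBI-1 and 0.21 and 0.21 with DMSO. In DND-41 the bars stood at 0.39 and -0.48 for the libraries labelled ACBI-1 numbers 1 and 2, and at 0.45 and -0.36 for those labelled DMSO numbers 1 and 2.

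The authors' deposited DND-41 table follows the numbers. For 100% of 27069 genes its log2 fold change was that of number 2 over number 1, to within 0.001, and for 0.151% it was that of ACBI-1 over DMSO as labelled. The authors' deposited MOLT-4 table held ACBI-1 over DMSO for 100% of 27777 genes. The labels and count columns name the libraries with the compound, and the authors' deposited DND-41 table goes against them. Which is right was not tested, so the values below state a difference between numbered libraries. In the authors' deposited DND-41 table, 44 of 46 members were lower in the libraries numbered 2 and 0 were higher, by DESeq2 at an adjusted p under 0.05, where 21.6% of 14883 genes were lower and 15.2% higher. In the authors' deposited MOLT-4 table, 42 members were lower and 0 higher, where 20.3% of 16234 genes were lower and 14.7% higher. The median log2 fold change of the members was -0.87 in the authors' deposited DND-41 table and -0.44 in that for MOLT-4.

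By step, the medians in the authors' deposited DND-41 table were -0.72 for RNA polymerase I transcription, -0.82 for snoRNP proteins, -0.86 for small subunit processing, -0.89 for large subunit processing and -0.89 for several steps. Among the members, transcription was the step nearest 0 here as in MOLT-4, again with UBTF and POLR1E as its members that did not pass. Among the other genes in MOLT-4 its median was -0.34, against -0.28 for snoRNP, -0.36 for small subunit and -0.35 for large subunit genes. In the authors' deposited DND-41 table the medians of these lists were -0.37, -0.63, -0.57 and -0.55. UBTF had 279.6 and 282 CPM in the libraries numbered 2, against 284 and 281 CPM in those numbered 1, and a log2 fold change of -0.04 in the authors' deposited table (SE 0.0753, DESeq2 adjusted p = 0.722). POLR1E had 37.2 and 34.1 CPM in the libraries numbered 2, against 43.6 and 40.3 CPM in those numbered 1 (authors' deposited table -0.27, SE 0.122, DESeq2 adjusted p = 0.0717). RRS1 lay at the other end, with 22.01 and 24.7 CPM in the libraries numbered 2, against 57.8 and 61.4 CPM in those numbered 1 (authors' deposited table -1.38, SE 0.124, DESeq2 adjusted p = 7.33e-27). MRTO4, with 39.2 and 40.9 CPM in the libraries numbered 2 against 101 and 102 CPM in those numbered 1, stood at -1.37 in the authors' deposited table (SE 0.101, DESeq2 adjusted p = 7.37e-40). DDX21 had 169 and 177 CPM in the libraries numbered 2, against 442 and 420.2 CPM in those numbered 1 (authors' deposited table -1.35, SE 0.0798, DESeq2 adjusted p = 1.51e-61). These 3 genes were among the largest falls in MOLT-4 too.

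Some members stood elsewhere in the order for DND-41. BOP1, which did not pass in MOLT-4, had 10.6 and 11.6 CPM in the libraries numbered 2, against 19.2 and 21.1 CPM in those numbered 1 (authors' deposited table -0.89, SE 0.174, DESeq2 adjusted p = 2.37e-06). IMP3, the other gene of subunit processing that did not pass in MOLT-4, stood at -0.48 in the authors' deposited table (SE 0.112, DESeq2 adjusted p = 8.58e-05). MYBBP1A had 109 and 116 CPM in the libraries numbered 2, against 290.2 and 278 CPM in those numbered 1, and at -1.37 in the authors' deposited table (SE 0.0848, DESeq2 adjusted p = 2.06e-56) it was level with MRTO4. FBL had the difference nearest 0 among the snoRNP genes in both of the authors' deposited tables, at -0.37 in DND-41 and -0.29 in MOLT-4. Across the 46 members the log2 fold changes of both deposited tables had a Pearson r of 0.778 and a Spearman rho of 0.700, against 0.582 and 0.622 over 14053 genes. This correlation is across genes, which are not independent replicates and share their level and length between the tables. Of the 148 other ribosome biogenesis genes, 117 were lower in the libraries numbered 2 and 2 higher in the authors' deposited DND-41 table, where 21.6% of 14883 genes were lower and 15.2% higher. The genes that were higher were GLTSCR2, also named NOP53 (0.61), and EXOSC9 (0.35).

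**Figure D4:**
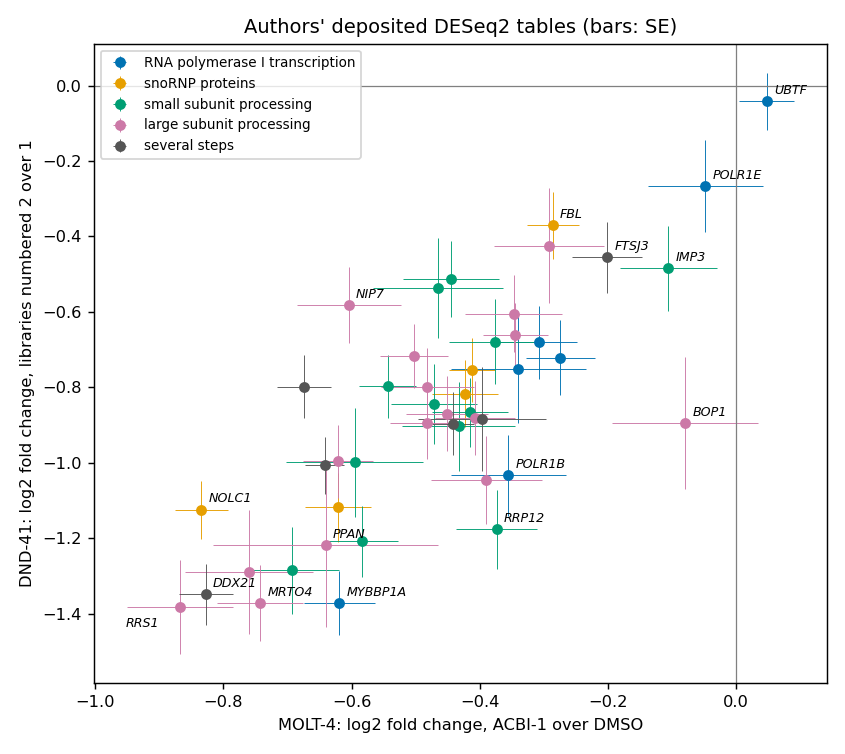
Log2 fold changes of the 46 nucleolar genes in the authors' deposited DESeq2 tables, MOLT-4 ACBI-1 over DMSO on the x axis and DND-41 libraries numbered 2 over those numbered 1 on the y axis, with standard errors as bars. Points run from RRS1 at -0.87 and -1.38 to UBTF at 0.05 and -0.04, and BOP1 stands off the trend at -0.08 and -0.89.

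The difference between the lines in the response was tested as a line by treatment interaction, with the DND-41 libraries as labelled. Of the 46 members 0 passed in either direction (lowest adjusted p = 0.632 by edgeR, 0 at an unadjusted p under 0.05), where 0.268% of 16047 genes were lower and 0.125% higher. The median of the interaction was -0.42 on the log2 scale, and 44 members were below 0. This size is close to the fall in MOLT-4, since the labelled DND-41 groups had a median near 0. It rested on the DND-41 libraries. The median was 0.13 without DND-41 ACBI-1 replicate 1 and -0.06 without DND-41 DMSO replicate 2, against -0.78 without DND-41 ACBI-1 replicate 2 and -0.87 without DND-41 DMSO replicate 1. With the replicate number as a block, 38 members were lower, where 19.3% of 16047 genes were lower and 17.2% higher. Whether the response of the members differed between the lines thus depended on the block, and the labels do not say what a number marks. It also depends on which DND-41 libraries held the compound. In the authors' deposited tables the median of the members was -0.87 in DND-41, number 2 over number 1, and -0.44 in MOLT-4. An interaction with the libraries numbered 2 as treated was not fitted.

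The last comparison set the level of the members in MOLT-4 against that in DND-41, over both treatments. Of the 46 members 11 were higher in MOLT-4 and 0 lower by edgeR, where 26.8% of 16047 genes were higher and 26.6% lower. The share called higher was thus near that of all genes, while the share called lower was below it. The median log2 difference was 0.41, against -0.02 for all genes, with 43 members above 0 and 3 below. This contrast pools the DND-41 libraries of both numbers. The members took 0.866% and 0.893% of counts in the DND-41 libraries numbered 1, and 0.517% and 0.542% in those numbered 2. In MOLT-4 they took 0.747% and 0.761% with ACBI-1 and 0.968% in each DMSO library. A contrast with the libraries of 1 number alone was not fitted. The members that passed with the smallest adjusted p were NOC3L (1.45, SE 0.132, edgeR adjusted p = 0.000205) and FTSJ3 (0.98, SE 0.134, edgeR adjusted p = 0.00122). The others were, from the largest difference down, BOP1, NOP56, NAT10, TAF1D, FBL, POLR1E, IMP3, UTP15 and UBTF, which ended at 0.32. POLR1B had the lowest log2 difference, -0.54, and did not pass (edgeR adjusted p = 0.158). With 1 library left out at a time, the median log2 difference of the members ran from 0.21 to 0.65. That of POLR1B ran from -0.77 to -0.20. The number of members called higher also changed with the library left out.

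Levels between genes were compared per exon length, as RPKM with the GENCODE release 29 lengths. NPM1 was the most abundant member, at 325 ± 9.62 RPKM with ACBI-1 and 439 ± 7.64 RPKM with DMSO in MOLT-4 (SD, n = 2 libraries each). NCL followed at 150.3 ± 0.557 RPKM with ACBI-1 and 233 ± 3.23 RPKM with DMSO, and FBL at 142 ± 0.416 RPKM with ACBI-1 and 172 ± 0.191 RPKM with DMSO. The next 3 members stood in another order in each group. With ACBI-1, NOP56 had 91.3 ± 1.27, PA2G4 73.5 ± 1.01 and NOLC1 71.5 ± 0.0147 RPKM, and with DMSO NOLC1 had 127 ± 3.58, NOP56 121 ± 0.190 and PA2G4 116 ± 2.66 RPKM. In neither group did the libraries of neighbours in that order overlap, and these gaps between genes were not tested. In DND-41 NPM1 ranged from 191 to 391 RPKM, NCL from 93.4 to 199 RPKM and FBL from 89.1 to 126 RPKM over the 4 libraries, with the lower values in those numbered 2. PPAN had the lowest mean in both lines. In MOLT-4 it had 3.81 ± 0.0197 RPKM with ACBI-1 and 5.91 ± 0.513 RPKM with DMSO, and in DND-41 2.03 to 4.996 RPKM. P2RY11 overlaps PPAN on the same strand with 137% of its counts, and how far this affects the level of PPAN was not measured. BOP1, whose length was matched by symbol, had 7.85 ± 0.258 RPKM with ACBI-1 and 8.24 ± 0.354 RPKM with DMSO in MOLT-4. The median RPKM over the members of a step in MOLT-4 was 71.5 with ACBI-1 and 121 with DMSO for snoRNP proteins, and 62.0 with ACBI-1 and 103 with DMSO for several steps. It was 16.5 with ACBI-1 and 22.2 with DMSO for small subunit processing, 14.5 with ACBI-1 and 19.8 with DMSO for large subunit processing, and 14.9 with ACBI-1 and 18.3 with DMSO for RNA polymerase I transcription. The change in MOLT-4 did not follow the level: across the 46 members the log2 fold change and the mean log2 CPM had a Pearson r of -0.104 and a Spearman rho of -0.138.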

How the data were processed

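Strand-specific paired-end RNA sequencing of 8 libraries was compared. Raw counts for each Ensembl gene were deposited as 1 table for each line. The authors also deposited their DESeq2 results, with fold changes and errors on the log2 scale. The deposited tables hold p-values and adjusted p-values, a Wald score per gene and a mean signal, the normalized count averaged over the libraries. Per the submitters' processing notes, STAR 2.5.2a, featureCounts, DESeq2 1.12.4 and hg19 were used. The strand setting and the annotation release are not given in the sources used here. Column names give treatment and number and placed every count column, so that 0 stayed unassigned. The names of all MOLT-4 count columns also end in "redo", and those of DND-41 do not. What this mark means is not given, and it cannot be told apart from the line.

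The 46 members and the 148 other genes were matched by symbol and Ensembl identifier. DKC1 and BOP1 had 2 identifiers each, of which the second held 0 counts. All 46 passed edgeR's filterByExpr in each comparison. Members, steps, lists and tests were chosen with earlier results of these data known. Genes with values per library were the 3 with the smallest adjusted p in MOLT-4 and the most abundant of each step, and each that did not pass. Of each other list, up to 4 genes with the smallest adjusted p and each that rose were named. SMARCA2, SMARCA4, PBRM1 and MYC were named as well, and MAX, GLTSCR2, EXOSC9, the exosome subunits that did not pass, NOP10, and the markers named were added after their values were seen.

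Lines were tested singly in R 4.3.3 with edgeR 4.0.16 (quasi-likelihood, 2-sided, TMM, Benjamini-Hochberg over all genes, threshold 0.05). The interaction and the contrast of the lines came from 1 fit of the 8 libraries. CPM use the TMM scaling within a line, and RPKM that of the 8 libraries with GENCODE release 29 exon lengths. Alternatives were the scaling, the filter, DESeq2 1.42.0, a replicate block, a spread shared between the lines and each library left out. Each library held 21308737 to 22067644 counts, and the precision rests on this depth and on 2 libraries per group. The edgeR tests were run on simulated counts with known changes. Scores and mean signals were not used for any result. An hg19 annotation was not used here, so coordinates are those of RefSeq promoters on GRCh38.p14. The values of 1 marker gene are not reported here.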

Additional observations from a re-analysis of the deposited data

How the results depend on the processing

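In MOLT-4, 42 members fell, 0 rose and the median log2 fold change of the members stayed near -0.43 under most alternatives. The median was -0.43 with DESeq2 size factors in edgeR, -0.31 under total counts (1 member higher, UBTF), -0.45 without the low-count filter, -0.42 with at least 1 CPM in 2 libraries, -0.44 by DESeq2 and -0.43 with the spread shared between lines, where 0 members were lower. Leaving out each library gave medians of -0.44 to -0.43. With the replicate number as a block (replicate block), 42 members fell in MOLT-4. In DND-41 as labelled the replicate block gave 2 members higher and 6 lower (777 and 572 of all genes), and for the interaction 38 members lower (2767 of all genes higher and 3093 lower), against 0 in each case without it. The labels do not say that a number marks a shared culture or day. Deviations of same-numbered libraries had a correlation of 0.849 in DND-41 and 0.00928 in MOLT-4, so in DND-41 the block removes most of the spread that the labelled groups hold. Between the lines, leaving out each library gave 5 to 29 members higher and 0 to 1 lower. No result changed direction past its threshold. With 2 libraries per group, single-library effects cannot be separated from group effects, and in DND-41 small changes between the labelled groups lay within the spread.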
